A study of Mus musculus with 9 samples.

Results

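B-1 cells are a lineage of B lymphocytes that is seeded early in life, renews itself, lives mainly in the body cavities and in smaller numbers in the spleen, and makes natural antibodies. This account follows 8 genes linked to that lineage (Bhlhe41, Zbtb32, Cd5, Spn, Cd9, Plscr1, Ptpn22 and Plac8) in the spleens and lymph nodes of aged mice. They were taken by symbol from a table of 46517 genes, and all 8 were found. They were chosen by name as genes known from B-1 cells, with results of these data already known.

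All 9 libraries came from C57BL/6 mice older than 18 months. The wild-type group was 3 spleens (numbers 1, 4 and 5). The plckGAPDH mice gave 4 spleens (numbers 343, 508 and 547, and a spleen whose column carries no animal number) and 2 lymph nodes (508 and 455). plckGAPDH mice carry a transgene for the glycolytic enzyme Gapdh behind the Lck promoter, a promoter of T lineage cells, and the labels describe them as developing tumours. The protocol speaks of RNA from splenocytes for every library. Spleen 508 and lymph node 508 share an animal. Nothing else in the labels says that each library is a separate animal, and p-values measure the spread between these libraries.

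Levels are FPKM, a fragment count relative to the length of the gene and to the total of the library, so levels of different genes can be set side by side. Estimated depth was lowest in plckGAPDH spleen 508 (24100000 fragments) and highest in spleen 547 (34700000). The wild-type spleens stood apart from each other. The adult beta-globin Hbb-bs reached 33216 FPKM in wild-type spleen 5 and 0.170 to 808 FPKM in the other 8 libraries, and wild-type spleen 5 alone held the Y-linked gene Eif2s3y (30.5 FPKM), which was listed at 0 in the others. Wild-type spleen 4 held 1.37 FPKM of the neutrophil gene S100a8, against 1162 in wild-type spleen 1. Results that rest on these spleens are therefore also given without them. All 9 pan-B genes (lowest value 2.66 FPKM) and all 7 pan-T genes (lowest value 3.52 FPKM) were present in every library, lymph nodes included.

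B-1 cells differ from the follicular B-2 cells that fill most of the spleen in their surface proteins, in their transcription factors and in the antibodies they carry. Many B-1 antibodies bind phosphatidylcholine, a lipid of cell membranes, and these are built again and again from the same few pairs of V genes, the segments that encode most of the antigen-binding part. In mice the best known pairs are the heavy-chain segment Ighv12-3 with the kappa segment Igkv4-91, and Ighv11-2 with Igkv14-126.

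The germline sequences of these 4 segments are shown because the libraries with the highest B-1 gene levels also differed in their use. Each line gives up to 300 bases from the 3′ end of the segment's last exon, 5′ to 3′ on the coding strand, from the GENCODE M21 annotation of build GRCm38. Capitals mark the stretch from the codon of the conserved cysteine to the end of the segment, which in a rearranged gene begins the third complementarity-determining region. The files hold expression per gene and not rearranged reads, so these are reference letters and not the antibodies of the animals.
Ighv12-3, chr12:114366521-114366820, minus strand: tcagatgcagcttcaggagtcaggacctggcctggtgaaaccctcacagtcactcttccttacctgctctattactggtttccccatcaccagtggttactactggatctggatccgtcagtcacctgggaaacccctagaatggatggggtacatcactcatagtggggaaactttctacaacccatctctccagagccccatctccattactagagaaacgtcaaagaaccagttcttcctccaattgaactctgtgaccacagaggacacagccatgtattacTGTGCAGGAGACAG
Igkv4-91, chr6:68768555-68768854, minus strand: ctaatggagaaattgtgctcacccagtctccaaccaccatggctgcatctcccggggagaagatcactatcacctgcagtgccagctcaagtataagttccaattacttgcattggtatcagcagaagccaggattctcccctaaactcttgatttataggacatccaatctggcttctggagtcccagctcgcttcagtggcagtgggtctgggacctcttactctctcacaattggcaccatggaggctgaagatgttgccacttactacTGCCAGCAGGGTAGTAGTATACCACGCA
Ighv11-2, chr12:114048241-114048540, minus strand: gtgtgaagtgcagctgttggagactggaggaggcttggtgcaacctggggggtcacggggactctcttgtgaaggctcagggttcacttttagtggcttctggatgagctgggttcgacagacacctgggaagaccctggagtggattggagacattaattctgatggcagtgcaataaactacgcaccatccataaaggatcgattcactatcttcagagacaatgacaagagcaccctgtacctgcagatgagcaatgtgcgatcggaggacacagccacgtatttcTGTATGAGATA
Igkv14-126, chr6:67896345-67896642, plus strand: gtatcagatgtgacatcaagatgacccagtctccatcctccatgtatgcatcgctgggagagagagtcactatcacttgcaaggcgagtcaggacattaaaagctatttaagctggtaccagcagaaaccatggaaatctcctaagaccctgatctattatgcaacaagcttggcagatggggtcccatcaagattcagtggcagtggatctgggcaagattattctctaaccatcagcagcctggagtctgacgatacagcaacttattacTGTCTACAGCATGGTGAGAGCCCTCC

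The phosphatidylcholine pair Ighv12-3 and Igkv4-91 filled the antibody V gene expression of plckGAPDH spleen 547. Ighv12-3 was at 3107 FPKM there, and at 3.87, 0.580 and 4.25 FPKM in wild-type spleens 1, 4 and 5 and 3.89, 5.92 and 0 FPKM in plckGAPDH spleens 343, 508 and the unnumbered spleen. It took 98.8% of the summed FPKM of 185 heavy-chain V genes in spleen 547, against 0.0209% to 0.189% in the wild-type spleens. Igkv4-91 was at 5154 FPKM in spleen 547, at 16.1, 10.8 and 21.5 FPKM in wild-type spleens 1, 4 and 5, and at 13.9, 8.77 and 2.33 FPKM in plckGAPDH spleens 343, 508 and the unnumbered spleen. Its share of the summed FPKM of 162 kappa V genes was 98.6% in spleen 547. These levels stand for about 19727 and 33622 fragments, against 3 to 20 for Ighv12-3 and 57 to 104 for Igkv4-91 in the wild-type spleens. Ighm, the constant region of IgM, which B-1 cells commonly carry, made up 94.0% of the heavy-chain constant FPKM in spleen 547 and 81.8% in the unnumbered spleen, against 73.5%, 13.8% and 66.0% in wild-type spleens 1, 4 and 5 and 37.5% and 0.788% in plckGAPDH spleens 343 and 508. V genes resemble each other, and reads can be split among them.

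Lymph node 508 was the other library with raised use of this pair. Ighv12-3 was at 82.4 FPKM there and Igkv4-91 at 190 FPKM, 13.9 and 21.7 times the levels in the spleen of the same animal and 2.65% and 3.69% of the levels in spleen 547. They took 16.5% of the heavy-chain and 14.5% of the kappa V gene FPKM and ranked 2 and 3 in their families. Lymph node 455 held 0.830 and 1.41 FPKM. Ighm made up 1.46% of the heavy-chain constant FPKM in lymph node 508. Among all 46517 genes, Ighv12-3 and Igkv4-91 were the only ones at 100 FPKM or more in spleen 547 that stood at least 50-fold above the wild-type spleens and spleen 508. Plac8, the member highest in spleen 547, was at 0.906% of that level in lymph node 508, below the shares of the V gene pair. The other members were above those shares, at 5.58% (Zbtb32) to 36.6% (Cd5). Whether RNA passed between the libraries was not tested.

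The other phosphatidylcholine pair was highest in the unnumbered spleen. Ighv11-2 was at 59.8 FPKM there, at 11.9, 1.74 and 7.84 FPKM in wild-type spleens 1, 4 and 5, at 1.10, 3.50 and 0.590 FPKM in plckGAPDH spleens 343, 508 and 547, and at 3.85 and 0.400 FPKM in lymph nodes 508 and 455. Igkv14-126 was at 48.9 FPKM in the unnumbered spleen, at 17.7, 20.3 and 20.1 FPKM in the wild-type spleens, at 1.26, 3.63 and 0.610 FPKM in plckGAPDH spleens 343, 508 and 547, and at 4.45 and 1.81 FPKM in the lymph nodes. Each ranked 3 in its family there, with 2.63% and 2.72% of the FPKM, so they were far from filling the family as the first pair did in spleen 547.

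**Figure D1:**
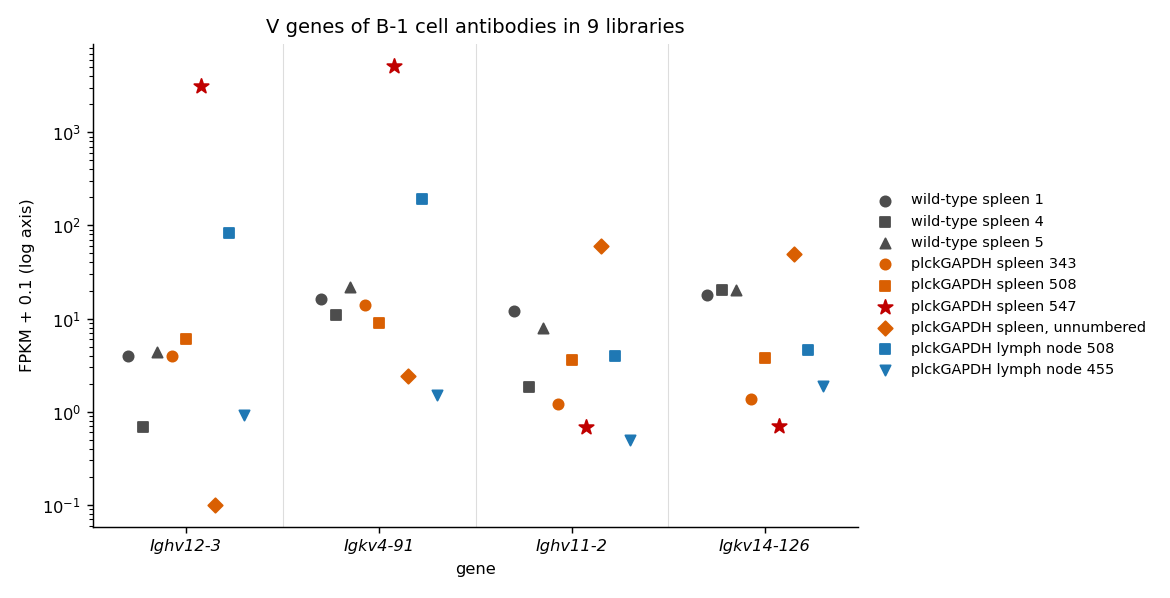
FPKM + 0.1 on a log axis of the 4 V genes of phosphatidylcholine-binding antibodies, 1 point for each of 9 libraries. Ighv12-3 and Igkv4-91 stand at 3107 and 5154 FPKM in plckGAPDH spleen 547 and at 82.4 and 190 FPKM in lymph node 508, while Ighv11-2 and Igkv14-126 are highest in the unnumbered spleen.

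Segments of the phosphorylcholine-binding B-1 antibodies, which recognise a bacterial and oxidised-lipid head group, were near or at 0 in the plckGAPDH libraries. Ighv7-1 was at 2.13, 2.41 and 8.28 FPKM in wild-type spleens 1, 4 and 5, listed at 0 in plckGAPDH spleens 343, 508 and 547 and in lymph node 508, and at 0.210 and 0.390 FPKM (about 1 and 2 fragments) in the unnumbered spleen and lymph node 455. Ighv7-1 reached the filter of 1 FPKM in 3 spleens through the wild-type spleens alone, so its values are given as a description, with no test. Igkv7-33 was at 0.390, 0 and 3.60 FPKM in the wild-type spleens and listed at 0 in the other 6 libraries. It stayed below the filter, and in wild-type spleen 4 it was at 0 as well. With limma, 0 of the 4 segments of the phosphatidylcholine pairs passed in either direction, and 0 had an unadjusted p under 0.05.

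Among the transcription factors, Bhlhe41 and Zbtb32 were both highest in spleen 547. Bhlhe41, a repressor of the basic helix-loop-helix family that B-1a cells need for their self-renewal, lies on chromosome 6, 145858243 to 145865558, minus strand, in GRCm38. It was at 13.7, 3.22 and 1.91 FPKM in wild-type spleens 1, 4 and 5, at 7.24, 16.4, 60.1 and 7.51 FPKM in plckGAPDH spleens 343, 508, 547 and the unnumbered spleen, and at 11.5 and 4.78 FPKM in lymph nodes 508 and 455. Spleen 547 stood 3.66 times above the next library, spleen 508, and the other plckGAPDH spleens overlapped the wild-type range or lay just above it. An unnamed transcript on the opposite strand, Gm43909, shares 1280 exonic bases with Bhlhe41 and reached 5.98 FPKM at most. The strand setting of the counting is not known here, and reads in that stretch could be split between them.

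Zbtb32, a zinc finger repressor with a BTB domain that is induced in activated lymphocytes, lies on chromosome 7, 30589681 to 30598909, minus strand. It was at 12.7, 4.47 and 1.45 FPKM in the wild-type spleens, at 7.93, 3.06, 48.1 and 11.7 FPKM in plckGAPDH spleens 343, 508, 547 and the unnumbered spleen, and at 2.68 and 0.490 FPKM in the lymph nodes. Spleen 547 stood 3.78 times above the next library, wild-type spleen 1, and the other 3 plckGAPDH spleens lay inside the wild-type range.

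The surface proteins did not move as a block. Cd5, the scavenger-receptor protein that dampens antigen receptor signals and defines B-1a cells but is also carried by T cells, lies on chromosome 19, 10717116 to 10739002, minus strand. It was at 19.0, 12.9 and 32.4 FPKM in the wild-type spleens, at 9.39, 5.80, 12.8 and 39.4 FPKM in plckGAPDH spleens 343, 508, 547 and the unnumbered spleen, and at 4.69 and 4.07 FPKM in the lymph nodes. Spleen 547, with the largest use of Ighv12-3, was thus not among the libraries high in Cd5. The highest library was the unnumbered spleen, which also had the highest summed pan-T genes of all libraries (1023 FPKM, against 352 to 584 in the wild-type spleens), and the part of T cells in that level was not tested.

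Spn, which encodes the sialoglycoprotein CD43 found on B-1 cells, T cells and myeloid cells, lies on chromosome 7, 127132232 to 127137823, minus strand. It was at 60.0, 51.0 and 51.1 FPKM in the wild-type spleens, at 43.5, 42.1, 75.02 and 94.9 FPKM in plckGAPDH spleens 343, 508, 547 and the unnumbered spleen, and at 23.1 and 25.3 FPKM in the lymph nodes. The wild-type spleens were close together, with 2 plckGAPDH spleens below and 2 above all of them.

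Cd9, a tetraspanin of B-1, marginal zone and plasma cells and of platelets, lies on chromosome 6, 125460266 to 125494791, minus strand. It was at 21.5, 11.5 and 36.4 FPKM in the wild-type spleens, at 11.5, 11.0, 83.3 and 38.8 FPKM in plckGAPDH spleens 343, 508, 547 and the unnumbered spleen, and at 8.22 and 4.67 FPKM in the lymph nodes. Spleen 547 stood 2.15 times above the next library, the unnumbered spleen. The summed megakaryocyte and platelet genes were at 11.1 FPKM in spleen 547 and highest, at 86.2 FPKM, in wild-type spleen 5. The summed plasma cell genes were at 366 FPKM in spleen 547 and highest, at 4478 FPKM, in spleen 508. Jchain made up much of that sum in spleen 508, at 3472 FPKM. It was at 18.75 FPKM in spleen 547 and 132 to 220 FPKM in the wild-type spleens. Prdm1, Xbp1, Sdc1, Irf4 and Mzb1 were each higher in spleen 547 than in each wild-type spleen. So were 45.8% of all genes with 1 FPKM in at least 3 spleens. The part of platelets and plasma cells in the Cd9 levels was not tested.

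Plscr1, a phospholipid scramblase that is also induced by interferon, was the member with the clearest order between the genotypes. It lies on chromosome 9, 92249750 to 92272278, plus strand. It was at 11.3, 5.92 and 3.73 FPKM in the wild-type spleens, at 13.1, 12.0, 45.7 and 21.8 FPKM in plckGAPDH spleens 343, 508, 547 and the unnumbered spleen, and at 10.2 and 5.70 FPKM in the lymph nodes. Each plckGAPDH spleen lay above each wild-type spleen, with spleen 508 closest to wild-type spleen 1. The interferon response list did not show that order: its summed level was 133 to 271 FPKM in wild-type spleens, 97.1 to 367 FPKM in plckGAPDH spleens and 199 FPKM in spleen 547, and 0 of its 7 genes passed the test.

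Ptpn22, a phosphatase that restrains antigen receptor signalling in B and T cells, lies on chromosome 3, 103859795 to 103912247, plus strand. It was at 75.8, 81.6 and 44.7 FPKM in the wild-type spleens, at 68.1, 33.0, 89.0 and 90.7 FPKM in plckGAPDH spleens 343, 508, 547 and the unnumbered spleen, and at 23.2 and 23.8 FPKM in the lymph nodes. Spleen 547 and the unnumbered spleen were close to each other and just above the wild-type range. For Ptpn22, Spn and Cd5, spleen 547 was at 1.58, 1.59 and 1.15 times the median of the other 8 libraries.

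Plac8, a small cysteine-rich protein of lymphoid and myeloid cells, had the widest range of the 8 genes. It lies on chromosome 5, 100553725 to 100572245, minus strand. It was at 187, 64.8 and 290 FPKM in the wild-type spleens, at 13.0, 13.9, 1133 and 83.7 FPKM in plckGAPDH spleens 343, 508, 547 and the unnumbered spleen, and at 10.3 and 50.3 FPKM in the lymph nodes. Spleen 547 stood 3.91 times above the next library, wild-type spleen 5, and spleens 343 and 508 stood below every wild-type spleen. The summed neutrophil genes were at 1162 FPKM in spleen 547 and 1328 FPKM in spleen 508, and at 3374 FPKM in wild-type spleen 1. The summed macrophage and monocyte genes were at 515, 355 and 967 FPKM in wild-type spleens 1, 4 and 5, at 335, 181, 529 and 373 FPKM in plckGAPDH spleens 343, 508, 547 and the unnumbered spleen, and at 98.3 and 583 FPKM in lymph nodes 508 and 455. They were highest in wild-type spleen 5, next to highest for Plac8, and lowest in lymph node 508, as Plac8 was. Lymph node 455 was next to highest for these summed genes, with Plac8 at 50.3 FPKM. Spleen 547 and wild-type spleen 1 were at 529 and 515 FPKM for the sum, and at 1133 and 187 FPKM for Plac8. The part of macrophages and monocytes in the Plac8 levels was not tested.

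**Figure D2:**
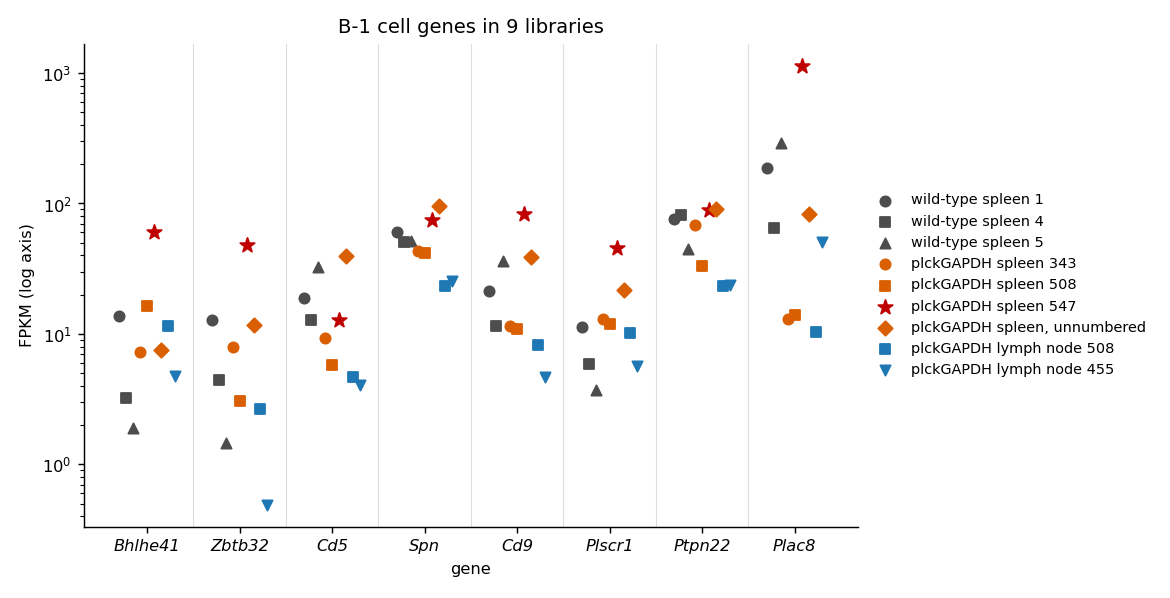
FPKM of the 8 B-1 cell genes on a log axis, 1 point for each of 9 libraries, coloured by genotype and tissue. The star of plckGAPDH spleen 547 is the highest point for Bhlhe41, Zbtb32, Cd9, Plscr1 and Plac8, and the unnumbered spleen is the highest for Cd5, Spn and Ptpn22.

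Spleen 547 was the highest of the 9 libraries for 5 of the 8 genes (Bhlhe41, Zbtb32, Cd9, Plscr1 and Plac8), against 34.5% of the genes with 1 FPKM in at least 2 libraries. For the same 5 genes it stood at least 2-fold above every other library, against 3.88% of those genes. It stood 8.15, 12.8, 7.23, 4.24 and 19.7 times above the median of the other 8 libraries for Bhlhe41, Zbtb32, Cd9, Plscr1 and Plac8. With median-of-ratios scaling, which divided spleen 547 by the largest factor of all libraries (1.53), it was still the highest for 5 members, and 2 of them, Zbtb32 and Plac8, stood at least 2-fold above the rest, against 1.18% of all genes. With columns scaled without immunoglobulin and mitochondrial genes, 4 members did so, against 2.92%. Spleen 547 is 1 library, so its difference from the rest has no replicate.

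Set against each wild-type spleen, the plckGAPDH spleens had different members out of range. In spleen 547, 7 members (all but Cd5) lay above each wild-type spleen, against 45.8% of the genes with 1 FPKM in at least 3 spleens, and 1 (Cd5, 12.80 against 12.85 FPKM in wild-type spleen 4) lay below, against 18.3%. In the unnumbered spleen, 5 (Cd5, Spn, Cd9, Plscr1 and Ptpn22) lay above, against 33.4%, and 0 below, against 10.5%. Spleen 508 had 2 members above (Bhlhe41 and Plscr1), against 14.1%, and 5 below (Cd5, Spn, Cd9, Ptpn22 and Plac8), against 47.0%. Spleen 343 had 1 above (Plscr1), against 16.4%, and 4 below (Cd5, Spn, Cd9 and Plac8), against 21.3%. In spleens 547 and 508 the shares over all genes were the largest of the 4 libraries, and in the same direction as the members. These counts moved with the scaling: in spleen 547, 5 members (Bhlhe41, Zbtb32, Cd9, Plscr1 and Plac8) lay above with either scaling, against 31.9% of all genes with median-of-ratios scaling and 42.0% without immunoglobulin and mitochondrial genes. In spleen 508, 3 members (Cd5, Cd9 and Plac8) lay below with median-of-ratios scaling, against 38.4%, and 0 lay above with the scaling without immunoglobulin and mitochondrial genes, against 3.83%.

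The comparison of the genotypes asks whether B-1 genes differ between transgenic and wild-type spleens of aged mice. None of the 8 genes passed the test. With limma on log2(FPKM + 1) over 12607 genes, 0 of 8 members had an FDR (the false discovery rate of Benjamini and Hochberg) under 0.05, against 1.44% of all genes, and 1 member (Plscr1) had an unadjusted p under 0.05, against 8.85% of all genes. The difference was positive for 6 members and negative for 2, with a median of 0.22, against 0.02 for all genes, of which 51.6% were positive. In bulk samples, fewer cells of a type and less RNA per cell cannot be told apart.

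Plscr1 averaged 23.1 FPKM ± 15.7 (SD, n = 4) in plckGAPDH and 6.997 ± 3.92 (SD, n = 3) in wild-type spleens. Its difference in log2(FPKM + 1) was 1.51 (SE 0.51, 95% interval 0.39 to 2.62), with a limma p of 0.0121 and an FDR of 0.302. Plscr1 was the 1 member of 8 whose groups did not overlap, against 7.27% of all genes tested. With columns scaled without immunoglobulin and mitochondrial genes its groups overlapped, and 0 of 8 members had an unadjusted limma p under 0.05. Without wild-type spleens 4 and 5 the difference was 0.77, and without spleen 547 it was 1.12.

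Bhlhe41 averaged 22.8 FPKM ± 25.2 (SD, n = 4) and 6.27 ± 6.44 (SD, n = 3). Its log2 difference was 1.55 (SE 0.72, interval -0.01 to 3.11, limma FDR 0.571). That value rested on few libraries: it was 0.92 without spleen 547, 0.17 without wild-type spleens 4 and 5, and -0.24 with sample quality weights, where 24.8 fell to wild-type spleen 1 and 0.296 to 2.04 to each of the other spleens. The estimation of those weights stopped before it had fully converged. Zbtb32, at 17.7 ± 20.6 (SD, n = 4) and 6.21 ± 5.83 FPKM (SD, n = 3), differed by 1.11 (SE 0.76, limma FDR 0.826). The Zbtb32 difference was 0.44 without spleen 547, 0.50 without wild-type spleen 5 and -0.16 without wild-type spleens 4 and 5. It was 1.74 without wild-type spleen 1.

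The other members differed by less than their spread. Plac8 averaged 311 FPKM ± 549 (SD, n = 4) and 181 ± 113 (SD, n = 3), and its log2 difference was -1.20 (SE 1.24, limma FDR 0.928), so the means and the mean of the logs point in opposite directions. Without spleen 547 the Plac8 difference was -2.56 (limma FDR 0.0992), and without spleen 343 it was -0.44. Cd5 differed by -0.57 (SE 0.57), and by -1.08 without the unnumbered spleen and -0.22 without spleen 508. Cd9 differed by 0.28 (SE 0.67) and Spn by 0.16 (SE 0.43). Ptpn22 differed by 0.00 (SE 0.47), and its interval of -1.03 to 1.03 leaves room for a change of about 2-fold in either direction.

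**Figure D3:**
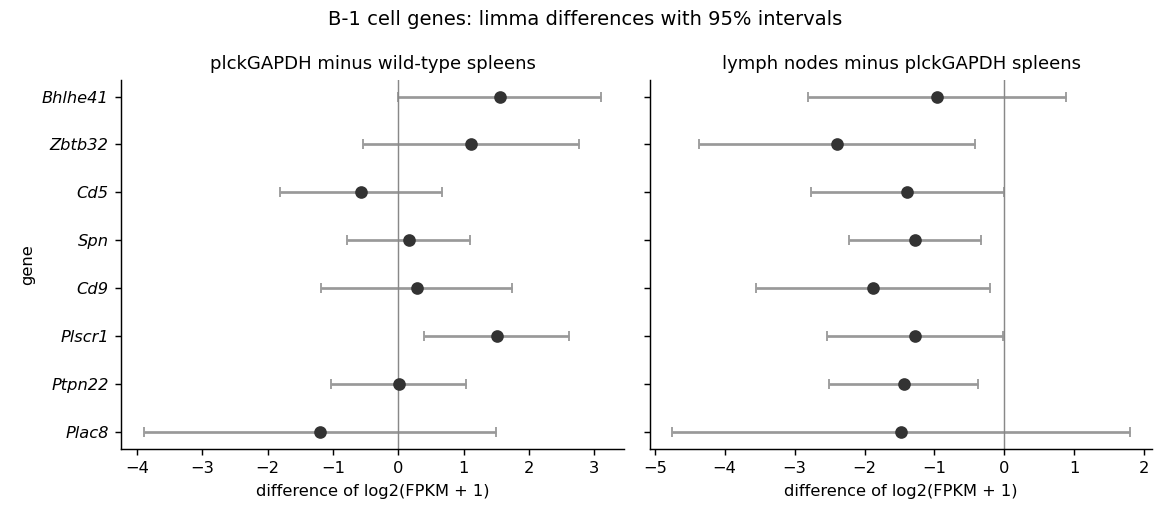
Differences in log2(FPKM + 1) of the 8 genes with 95% intervals from limma, plckGAPDH against wild-type spleens on the left (4 and 3 libraries) and plckGAPDH lymph nodes against plckGAPDH spleens on the right (2 and 4 libraries). On the left the interval of Plscr1 alone lies above 0, and on the right all 8 differences are negative.

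The spleens differed in B cell content, so each member was also read relative to the 9 pan-B genes of the same library, as log2(FPKM + 1) of the member minus the mean log2(FPKM + 1) of the list. Spleen 547 was the highest library on this scale for Bhlhe41 (-0.68), Zbtb32 (-0.996), Cd9 (-0.22), Plscr1 (-1.07) and Plac8 (3.53). The share of all genes highest in spleen 547 relative to pan-B genes was not taken, so this is a description of the members. The highest relative level of Cd5 was in the unnumbered spleen (-0.45), and spleen 547 was at -2.83. The relative level of Plscr1 was higher by 1.93 in plckGAPDH than in wild-type spleens (exact two-sided permutation p = 0.0857) and that of Bhlhe41 by 1.98 (exact permutation p = 0.114). With 35 ways to divide 7 spleens, the smallest p this design allows is 0.0286. None of the 8 members passed after adjustment, the lowest adjusted p being 0.457 (exact permutation test), and 0 of 8 had an unadjusted p under 0.05. Relative to Cd79a alone, a chain of the B cell receptor complex, Bhlhe41 was higher by 2.41 and Plscr1 by 2.37, each at the smallest p the design allows (exact permutation p = 0.0286), with an adjusted p of 0.114. Cd79a itself differed by -0.86 between the genotypes (limma FDR 0.831), against a median of -0.39 for the pan-B genes. A lower reference raises every gene on such a scale, and no share over all genes was taken.

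**Figure D4:**
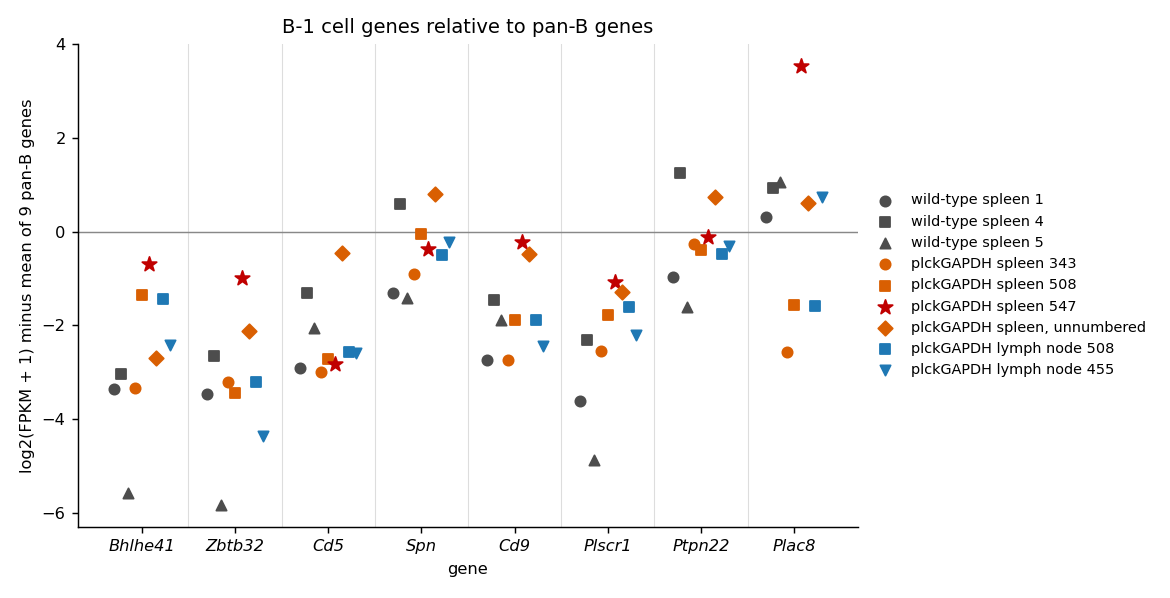
Level of each of the 8 genes relative to the mean of 9 pan-B genes in the same library, as a difference of log2(FPKM + 1), 1 point for each of 9 libraries. Spleen 547 is the highest point for Bhlhe41 (-0.68), Zbtb32 (-0.996), Cd9 (-0.22), Plscr1 (-1.07) and Plac8 (3.53), and 1 of the low points for Cd5 (-2.83).

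Cd5, Spn and Ptpn22 are also T cell genes, and spleen 547 was low in T cell genes, with a summed pan-T level of 179 FPKM. Relative to the 7 pan-T genes, spleen 547 was the highest library for all 8 members, Cd5 included (-0.46). The mean log2 pan-T level was 4.24 in spleen 547 and lower only in lymph node 508 (4.03). It was 5.23 to 6.01 in the wild-type spleens and 6.68 in the unnumbered spleen. A low reference raises every gene of a library on this scale. The share of all genes highest in spleen 547 on it was not taken, so whether the count is particular to the members is not known. Plscr1 was higher by 2.201 in plckGAPDH spleens on this scale (exact two-sided permutation p = 0.114), and the lowest adjusted p over the 8 members was 0.549 (exact permutation test).

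The lymph nodes held less of every member than the plckGAPDH spleens did on average, without a call. In the limma fit of 3 groups over 13682 genes, 0 of 8 members passed, against 0.0146% of all genes, and 6 had an unadjusted p under 0.05, against 11.3% of all genes. That number was 0 with median-of-ratios scaling (lowest limma p 0.0726, Zbtb32) and 4 with columns scaled without immunoglobulin and mitochondrial genes, and 0 and 3 without lymph nodes 455 and 508. Both lymph nodes lay below each plckGAPDH spleen for 6 members (all but Bhlhe41 and Plac8), against 30.0% of all genes. With median-of-ratios scaling this held for 1 member (Spn), against 5.04% of all genes, and with columns scaled without immunoglobulin and mitochondrial genes for 3 (Bhlhe41, Zbtb32 and Cd9), against 3.88%. Most genes were lower in the nodes in this unit: 10.8% of all genes had a positive difference, with a median of -0.59, and the members' median was -1.42. Median-of-ratios scaling moved the median of all genes by 0.57 and scaling without immunoglobulin and mitochondrial genes by -0.15, and the 8 members kept a negative difference under both. With median-of-ratios scaling the differences ran from -0.26 (Bhlhe41) to -1.82 (Zbtb32).

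Ptpn22 averaged 23.5 FPKM ± 0.403 (SD, n = 2) in the nodes and 70.2 ± 26.8 (SD, n = 4) in the plckGAPDH spleens, a log2 difference of -1.44 (SE 0.49, limma p 0.0128, FDR 0.359). Spn averaged 24.2 ± 1.49 FPKM (SD, n = 2) in the nodes and 63.9 ± 25.7 (SD, n = 4) in the spleens, a difference of -1.28 (SE 0.43, limma FDR 0.359). Zbtb32 had the largest difference, -2.39 (SE 0.90, limma FDR 0.359), and was lowest of all libraries in node 455. Cd9 differed by -1.88 (SE 0.76), Plac8 by -1.48 (SE 1.49), Cd5 by -1.39 (SE 0.63), Plscr1 by -1.28 (SE 0.57) and Bhlhe41 by -0.96 (SE 0.84). Single libraries moved some of these values: Plac8 was at -0.12 without spleen 547, -0.39 without node 508 and -2.57 without node 455, and Bhlhe41 at -0.33 without spleen 547, -0.41 without node 455 and -1.52 without node 508. Plac8 was at -2.23 without spleen 343, and Cd5 at -0.88 without the unnumbered spleen. Summed neutrophil genes were at 36.4 to 54.3 FPKM in the nodes and 564 to 1328 FPKM in these spleens, and pan-T genes at 126 to 232 and 155 to 1023 FPKM. Their part in these differences was not tested.

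Spleen 508 and lymph node 508 come from the same animal, and the direction of the members between them depended on the scaling. In deposited FPKM all 8 members were lower in the node, at 0.550 (Spn) to 0.876 times (Zbtb32) the spleen's level, as were 85.8% of all genes tested. The median log2 difference was -0.39 for the members and -0.36 for all genes, while Ighv12-3 and Igkv4-91 were at 13.9 and 21.7 times the spleen's level. With median-of-ratios scaling 7 members were higher in the node and 1 (Spn) was lower, and 50.1% of all genes were lower. With columns scaled without immunoglobulin and mitochondrial genes all 8 members were lower, as were 90.7% of all genes.

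Other genes linked to B-1 cells, from a list of 13, gave no call between the spleens. Of 12 tested with limma, 0 passed in either direction, with 5 positive and 7 negative differences and a median of -0.07; Lin28b, the fetal regulator of B-1 development, stayed at 0.07 FPKM or less. The largest differences were those of Cd1d1, which presents lipids to T cells (-1.58, limma FDR 0.318), and Il5ra, the receptor for the B-1 growth factor interleukin-5 (-1.35, limma FDR 0.652). Spleen 547 was the highest library for 5 of the 13 (Fcrl5, Arid3a, Nfatc1, Ahr and Tnfrsf13b), a share near the 34.5% of all genes. It stood at least 2-fold above the rest for 1, against 3.88% of all genes. That gene was Arid3a, a transcription factor that favours fetal-type B cell development, at 32.9 FPKM against 13.9 FPKM in spleen 508. Tnfrsf13b, the receptor TACI, was at 105 FPKM in spleen 547.

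Genes of follicular B-2 cells were lower in plckGAPDH spleens. Of 7 tested, 2 fell, 0 rose, and all 7 differences were negative, with a median of -1.90. Cr2, the complement receptor CD21, was at 155, 11.0 and 146 FPKM in wild-type spleens 1, 4 and 5 and at 0.690, 0.140, 0.140 and 1.28 FPKM in plckGAPDH spleens 343, 508, 547 and the unnumbered spleen, a log2 difference of -5.44 (SE 0.75, limma FDR 0.00169). Fcer2a, which encodes CD23, a receptor for IgE, was at 41.5, 17.5 and 107 FPKM and at 1.07, 9.83, 0.220 and 0.810 FPKM in the same spleens (-4.05, SE 0.73, limma FDR 0.0136). B-1 cells carry little CD21 and CD23, and spleen 547 held the lowest Fcer2a of the 9 libraries. All 4 plckGAPDH spleens, not only spleen 547, lay below each wild-type spleen for both genes. Of the plckGAPDH spleens, only the unnumbered spleen reached 1 FPKM of Cr2. Cr2 thus met the filter mainly through the wild-type spleens, where it was high, and its call is limited by that. Cr2 passed without any 1 of the spleens, but its limma FDR was 0.0782 without a filter and 0.0665 without immunoglobulin and T cell receptor genes. Without wild-type spleens 4 and 5 together Cr2 did not meet the filter and was not tested. Fcer2a did not pass without wild-type spleen 5 (limma FDR 0.0823), without wild-type spleens 4 and 5 (0.293), without a filter (0.221), with median-of-ratios scaling (0.1004) or without immunoglobulin and T cell receptor genes (0.0736).

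Lists of other cell types that carry some of the members were read beside them. Of the 9 pan-B genes, 0 passed, with Ebf1 at -1.92 (limma FDR 0.101) and Cd79a at -0.86 (limma FDR 0.831) as the largest differences. Of the natural killer genes, 1 of 5 fell, Klrd1 (-2.80, limma FDR 0.0486), followed by Ncr1 (-2.63, limma FDR 0.0691). The call of Klrd1 was lost without any 1 of the wild-type spleens (limma FDR 0.0555, 0.206 and 0.293 without 1, 4 and 5) and without spleen 508 (0.0564). It was also lost with a pseudocount of 0.1 (limma FDR 0.173), without a filter (0.356) and with median-of-ratios scaling (0.0858). Without immunoglobulin and T cell receptor genes it was lost too (limma FDR 0.133). It held with columns scaled without immunoglobulin and mitochondrial genes (limma FDR 0.0182) and with sample quality weights (0.0162). Of 7 pan-T, 6 plasma cell, 7 neutrophil, 6 macrophage and monocyte, 5 dendritic cell and 7 interferon response genes, and of 3 megakaryocyte and platelet genes tested, 0 passed in either direction. The largest differences in these lists were those of Cd3d (-1.01), Cd247 (-0.80), Prdm1 (1.29), Jchain (-1.14), Ngp (2.45), Camp (2.197), Ccr2 (-1.24), Adgre1 (-0.81), Siglech (-1.38), Clec9a (-1.22), Ifit3 (-2.10), Ifit1 (-1.25), Ppbp (-0.80) and Itga2b (0.13). The summed neutrophil level was 4.27 FPKM in wild-type spleen 4, against 478 and 3374 FPKM in wild-type spleens 5 and 1.

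For each member, the 3 genes most like it were found by Pearson's r of log2(FPKM + 1) over the 9 libraries, which share their depth and scaling. Zbtb32 was most like Gfi1, a zinc finger repressor of blood cells (r = 0.95), RP24-267O6.1 (0.94) and Gphn (0.93). Bhlhe41 was most like the overlapping transcript Gm43909, which the table calls RP24-238C11.4 (0.94), Mcts2 (0.93) and Gm10552 (0.91). Plac8 was most like Fastkd2 (0.98), Lipo1 (0.97) and Fkbp4 (0.97), and Plscr1 most like Gm6264 (0.95), Kif24 (0.94) and A530032D15Rik (0.94).

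Cd5 was most like Dbndd2 (0.98), Heca (0.98) and Arhgef3 (0.97), Spn most like Fkbp1a (0.97), Actn4 (0.97) and Med14 (0.97), Cd9 most like Hadhb (0.98), Rpp25l (0.98) and Lbr (0.98), and Ptpn22 most like 2010111I01Rik (0.995), Gm12276 (0.97) and Atxn2 (0.97). No member was among the 3 nearest genes of another member.

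All 8 genes had promoters in the RefSeq table of build GRCm38.p6, 11 in all, each 250 bases before and 50 after a start. Of 3 motifs searched on both strands, CACGTG, the E-box that Bhlhe41 itself can bind, was found in the promoter of Bhlhe41, at position -153 from the start, and in no other member's. It is in 7.15% of 32851 promoters. The interferon element core, GAAA and GAAA with any 2 bases between them (3.44% of promoters), and the octamer ATGCAAAT (1.74%) were in none of the 11, which says only that these letters are not in these windows.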

How the data were processed

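RNA of 9 libraries was sequenced as 2 reads of 75 bases per fragment from 500 ng of total RNA with a stranded kit, per the labels' protocols. Values are FPKM with 2 decimals, as deposited and named per the file headers. The build mm10 and the tools Bowtie2 2.2.6, RSEM, STAR 2.4.0a, Subread 1.5.0-p3 and featureCounts are listed without roles, per the submitters' processing notes. The step that made the FPKM is not given in the sources used, nor are its annotation and strand setting. The series' design text speaks of triplicates and another sequencer; sample numbers follow the labels. The title of spleen 331 matches no column by name, and 1 plckGAPDH spleen column has no number; they were not joined. The number of columns not used was 0.

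Depth was estimated from low FPKM of genes 300 to 1200 bases long, less 160 to 170 bases per library: 77.4% to 83.7% of the values lay within 0.02 of a whole fragment (beside the rounding of the table), against 16.2% to 20.7% by chance. The test was limma (3.58.1, R 4.3.3) with a variance trend, on log2(FPKM + 1), which understates changes of low genes, with 1 FPKM in 3 spleens (or, for the fit of 3 groups, in 2 libraries), Benjamini-Hochberg FDR, threshold 0.05, two-sided. Relative levels used exact permutation tests. Alternatives were another pseudocount (0.1), no filter, 2 scalings, sample weights, left-out genes and left-out libraries. Scripts were tested on simulated data. Members, gene lists and comparisons were chosen with earlier results of these data known. Named were all members and the 6 V genes, and of each other list the genes that passed and the 2 with the largest difference.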

Additional observations from a re-analysis of the deposited data

Results flagged for a closer look

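Within the 4 plckGAPDH spleens, 13 genes (members and V genes with a level above 0) were checked for a library far from the other 3, by the gap to its neighbour as a share of the whole range. Of these, 6 had such a library, with a gap past the critical share of 0.829. The members and V genes were chosen with results of these data known. No share over all genes was taken, so this count is a description and not a test. Spleen 547 stood apart for Ighv12-3 (0.998 of the range), Igkv4-91 (0.998) and Plac8 (0.937). The unnumbered spleen stood apart for Ighv11-2 (0.951), Igkv14-126 (0.937) and Ighv7-1 (1.0). The last is a level of 0.210 FPKM, about 1 fragment, beside 3 libraries listed at 0. Spleen 547 was also the highest for Bhlhe41, Zbtb32, Cd9 and Plscr1, but there the gap did not reach the critical share.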

How the results depend on the processing

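With limma, 0 of 8 members passed in either comparison under every alternative run. The lowest FDR was 0.0965 (Plscr1, sample quality weights) between the genotypes and 0.0584 between lymph nodes and spleens. All 112 alternative differences of members between lymph nodes and spleens kept their sign; between the genotypes 97 of 112 did, relative to pan-B genes 65 of 72 and relative to pan-T genes 69 of 72. Where the sign turned, the cause was not tested. Ptpn22 became -0.050 with median-of-ratios scaling, -0.22 with scaling without immunoglobulin and mitochondrial genes and -0.21 without wild-type spleens 4 and 5; Spn became -0.072 with the scaling without immunoglobulin and mitochondrial genes. With sample quality weights, whose estimation stopped before full convergence, Bhlhe41 became -0.24, Zbtb32 -0.0039 and Cd5 0.19. Zbtb32 became -0.16 without wild-type spleens 4 and 5. Relative to Cd79a alone, Cd5 became 0.29.

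Leaving out 1 library at a time gave these ranges: between the genotypes, Cd9 -0.28 (without spleen 547) to 0.66, Ptpn22 -0.26 to 0.32 and Spn -0.061 to 0.32; relative to pan-B genes, Cd5 -0.74 to 0.24, Ptpn22 -0.15 to 1.28 and Plac8 -1.94 to 0.088; relative to pan-T genes, Cd5 -0.30 to 0.34 and Plac8 -2.13 to 0.24. The count of members at least 2-fold above the rest in spleen 547 was 2 instead of 5 with median-of-ratios scaling. Members lower in lymph node 508 than in spleen 508 numbered 1 instead of 8 with it. Those with both lymph nodes below each plckGAPDH spleen numbered 1 instead of 6 with it, and 3 with the scaling without immunoglobulin and mitochondrial genes, where members whose spleen groups did not overlap numbered 0 instead of 1. These counts under other scalings were chosen after seeing the data. Genes called between the genotypes numbered 181, and 110, 90 and 72 without wild-type spleen 1, 4 or 5, 12 without 4 and 5, 74 without a filter, 1863 with sample quality weights and 0 without immunoglobulin and T cell receptor genes. Between lymph nodes and spleens, 2 genes were called, and 0 to 28 under the alternatives. No paired analysis was possible because animal 508 alone is shared between groups. With 3 and 4 spleens, differences smaller than the intervals given were not detectable.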
